A study of Bos taurus with 9 samples.

Results

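The genes described here are the transcription factors of the HOX, FOX, SOX and KLF families, with their homeobox and T-box relatives (DLX, MSX, MEIS, PBX, PITX, LHX, TBX and the genes SIX3, SIX5 and SIX6). They were chosen by gene symbol: a gene entered when its symbol on the array began with 1 of these family names, and 3 further matching symbols were left out by the rule. This gave 48 of the 9155 genes named on the array, with 11 HOX, 10 FOX, 5 SOX, 5 KLF, 5 MEIS or PBX, 3 DLX or MSX, 2 TBX genes and 5 others (PITX1, LHX3, SIX3, SIX5 and SIX6). The remaining 2 matched by name alone: FOXRED1 encodes a mitochondrial oxidoreductase-like protein, and PBXIP1 a protein that binds PBX factors. The choice used no measured value.

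RNA came from bovine cells held in agarose, a hydrogel that keeps cells rounded, and was measured on 9 single-colour arrays. Mesenchymal stem cells (MSCs), marrow stromal cells able to form cartilage, were taken at day 0 (called undifferentiated in the labels) or after 28 days of culture (called chondrogenic). Chondrocytes, the cells of articular cartilage, were isolated, put into agarose straight away and also cultured for 28 days. Both day 28 groups were kept in a chemically defined medium with 10 ng/mL of the growth factor TGF-beta3, and each of the 3 groups held 1 array from each of 3 calves aged 3 to 6 months. No genotype or strain is given in the labels. No MSCs cultured without TGF-beta3 and no freshly isolated chondrocytes were among the arrays, so that time in gel and growth factor cannot be told apart. Chondrocytes at day 28 and day 0 MSCs also differed in cell type. In that comparison cell type, time in gel and growth factor cannot be told apart. In such bulk samples fewer cells of a type and less RNA per cell cannot be told apart either.

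HOX genes lie in clusters and are switched on by position along the body and limb, and adult stromal cells and chondrocytes keep much of that positional code. HOX proteins bind DNA together with MEIS and PBX partners. FOX (forkhead), SOX and KLF (zinc finger) factors bind other DNA motifs: SOX factors drive the cartilage programme, FOXO and FOXP factors act on metabolism and on chondrocyte maturation, and KLF factors relay growth, stress and hormone signals.

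Values are deposited log2 intensities, given for calves 1, 2 and 3 in that order, and differences are on the log2 scale with limma's standard error (3 arrays in each group) and a Benjamini-Hochberg adjusted p. A gene was called higher or lower at an adjusted p under 0.05, and the number of arrays limits the precision. A gene was read from its probe set of highest mean, and levels are not compared between genes, since each probe set has its own response. The chondrocyte label and the cultured MSCs had cartilage markers: 8 of 9 chondrocyte markers were higher in either day 28 group than in day 0 MSCs. The type II collagen gene COL2A1 read between 13.57 and 13.96 on all 6 day 28 arrays and between 6.89 and 8.44 at day 0. MATN1, a marker of other cartilages, lay between 2.42 and 3.00 on all 9 arrays. Of 15 blood cell markers 1 was higher and 4 lower in cultured than in day 0 MSCs. Log2 of their summed signal was 9.18 to 9.74 at day 0, 8.62 to 8.77 in day 28 MSCs and 8.95 to 9.25 in chondrocytes. Such a sum of unlogged intensities is weighted to the probe sets of highest signal. Of 10 endothelial markers 2 were higher in cultured MSCs and 3 in chondrocytes than in day 0 MSCs. Log2 of their summed signal was 8.96 to 9.35, 9.40 to 9.55 and 9.79 to 10.16, in the same order of groups. Within these lists the blood cell marker PTPRC lay between 2.05 and 2.78 and the endothelial marker VWF between 2.39 and 2.73 on all arrays. PTPRC and VWF do not stand for the other members of their lists, of which some were called, as the counts above show. The part of such cells in the results was not tested. On 2 arrays, day 28 MSCs and chondrocytes of calf 3, the bioC hybridisation control read 8.35 to 8.43, against 11 to 11.44 on the other 7. The excess of 3′ over 5′ signal in control transcripts ran from 1.14 to 1.59 at day 0, 1.58 to 1.95 in day 28 MSCs and 1.59 to 1.96 in chondrocytes, so this measure moved with day 28 as well; its part in the results was not tested.

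After 28 days MSCs had 12 of the 48 genes higher and 5 lower than at day 0. Those that rose were HOXA4, HOXA5, HOXA9, MEIS3, SOX15, TBX19, FOXA3, FOXO4, FOXS1, KLF11, KLF13 and KLF15. Those that fell were HOXA10, MEIS2, MSX1, PBXIP1 and FOXP1, the last by 1 of its 2 probe sets and against the other. Of all 9155 genes, 13.5% were called higher and 21.0% lower in this comparison, 34.5% in all, against 35.4% of the 48. The share called was therefore close to that of all genes, and the median difference was -0.04 over the 48 and -0.11 over all genes. The 5 lower calls became 2 without the day 0 array of calf 2 and 3 without the day 28 MSC array of calf 3.

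Between the cell types at day 28, chondrocytes had 5 of the genes higher than MSCs (HOXA4, HOXD10, MEIS1, FOXA3 and FOXP1, the last by 1 of its 2 probe sets) and 2 lower (MEIS2 and FOXO4). The background was 8.35% higher and 4.81% lower, 13.2% in all, against 14.6% of the 48, again close to all genes. The medians were -0.02 over the 48 and -0.02 over all genes. The 5 higher calls fell to 3 without the day 0 array of calf 1, the day 28 MSC array of calf 3, or the chondrocyte array of calf 1 or of calf 3, and to 2 without the chondrocyte array of calf 2. The 2 lower calls became 1 without the day 28 MSC array or the chondrocyte array of calf 2, and 4 with the calf as a block in the model. Centring each array on its median gave 4 higher and 3 lower.

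Chondrocytes at day 28 had 12 of the genes higher and 4 lower than day 0 MSCs. The higher ones were HOXA4, HOXA5, HOXA9, MEIS1, MEIS3, SIX5, SOX15, TBX19, FOXA3, FOXP4, KLF11 and KLF13, and the lower ones HOXA10, MEIS2, MSX1 and SOX4. The background was 15.1% higher and 20.9% lower, 36.0% in all, against 33.3% of the 48. The medians were -0.05 and -0.12. The 4 lower calls became 2 without the chondrocyte array of calf 1, and centring each array on its median gave 11 higher and 12 lower. The 3 comparisons share arrays, so that a gene's values in them are set side by side below and are not independent of each other. In all, 22 of the 48 genes were called in at least 1 comparison and 26 in none. The share of all genes called in at least 1 comparison was not determined, so nothing particular to the 48 is read from this count.

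**Figure D1:**
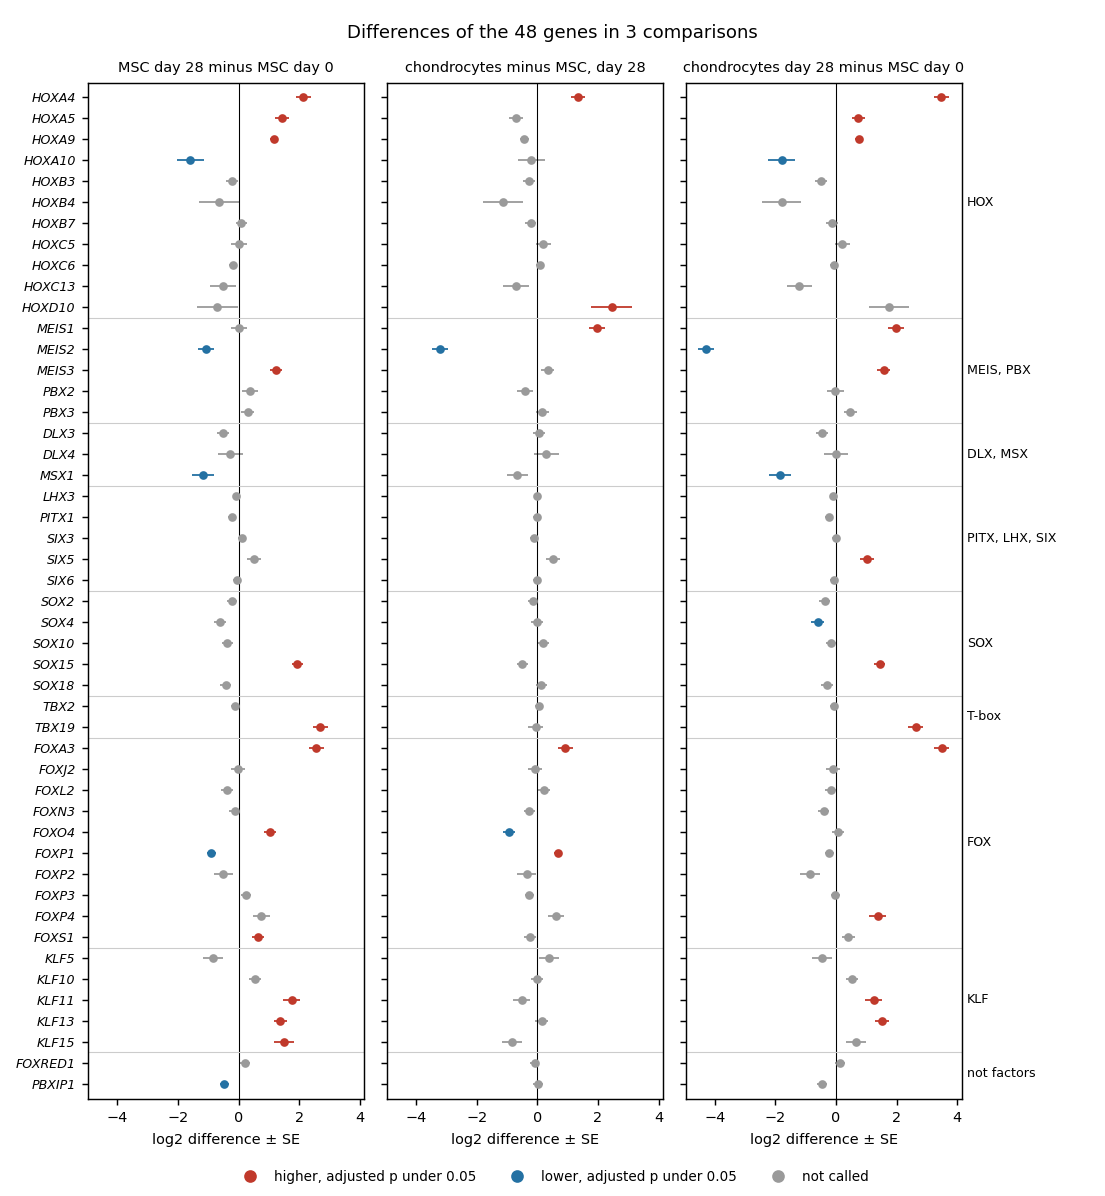
Log2 difference of each of the 48 genes (vertical axis, by family) in the 3 comparisons (panels), with bars for ± 1 of limma's standard error (3 arrays in each group). Red points were called higher, blue points lower and grey points not called at an adjusted p under 0.05. The points furthest from 0 are MEIS2 at -4.29 and FOXA3 at 3.48, both in chondrocytes against day 0 MSCs.

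Many of the genes gave little signal. By mean over the arrays, 11 of the 48 (22.9%) lay under the 25th percentile of all probe sets and 23 (47.9%) above the 50th, against 14.3% and 68.0% of all genes. Under the 25th percentile 0 of 11 were called by limma in any comparison, with 2, 0 and 3 at an unadjusted p under 0.05 in the order above. Few of all genes of that signal were called either (4.59%, 1.61% and 5.9%), so nothing particular to the 11 is read from this. Above the 50th percentile 60.9%, 26.1% and 52.2% of the genes were called, against 42.1%, 15.5% and 42.9% of all genes of that signal. A difference in the genes of low signal may therefore have gone unseen. The table carries no detection call, so that a low value is given here as a value and not as absence. For TBX19, SOX15 and MEIS2, 1 group read near the low end of the scale, and for MEIS1 the MSCs of day 0 and of day 28 did. Only log2 differences of the deposited values are given for these genes, with no fold. FOXA3 in day 0 MSCs (3.15 to 3.82) was not far above such values, and its folds below carry that limit.

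The HOXA cluster changed in both directions. HOXA4, HOXA5 and HOXA9 rose in cultured MSCs while HOXA10, a gene of the same cluster that acts in limb and uterus and in bone-forming cells, fell. HOXA4, which patterns the neck and chest region, read 5.85, 5.30 and 6.13 in day 0 MSCs, 7.72, 7.65 and 8.30 in day 28 MSCs and 9.24, 9.16 and 9.27 in chondrocytes. The groups stood in 3 steps without overlap, and chondrocytes of the 3 calves were nearly level. HOXA4 was 4.37-fold higher in day 28 MSCs than at day 0 (2.13 ± 0.24, adjusted p = 0.000212) and a further 2.52-fold higher in chondrocytes (1.34 ± 0.24, adjusted p = 0.00764). Against day 0 MSCs, chondrocytes were 11-fold higher (3.47 ± 0.24, adjusted p = 1.42e-05).

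HOXA5, a regulator of lung and rib patterning, took another order, with its highest values in cultured MSCs. It read 7.95, 7.91 and 7.25 at day 0, 9.23, 9.39 and 8.79 in day 28 MSCs and 8.56, 8.30 and 8.45 in chondrocytes. All 3 groups were apart from each other. The rise in MSCs was 1.43 ± 0.22 (adjusted p = 0.00135), and chondrocytes lay above day 0 MSCs by 0.73 ± 0.22 (adjusted p = 0.0346). That last call ended without the day 0 array of calf 3 or any of the 3 chondrocyte arrays (adjusted p 0.00337 to 0.106 over the alternatives). Chondrocytes against day 28 MSCs gave -0.70 ± 0.22 (adjusted p = 0.0859), which passed with the calf as a block (adjusted p = 0.0461; 0.0448 to 0.283 over the alternatives). A second HOXA5 probe set stayed between 1.95 and 2.57 on all arrays and was not called.

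HOXA9, known from blood stem cells and limb, was strong on every array. It read 9.07, 9.33 and 9.16 at day 0, 10.22, 10.39 and 10.48 in day 28 MSCs and 9.89, 9.83 and 10.09 in chondrocytes. As for HOXA5, the day 28 MSC arrays were highest, the day 0 arrays lowest, and no groups overlapped. In MSCs it rose by 1.17 ± 0.14 (adjusted p = 0.000305), and chondrocytes exceeded day 0 MSCs by 0.75 ± 0.14 (adjusted p = 0.00348). The step from day 28 MSCs to chondrocytes, -0.43 ± 0.14, was not called (adjusted p = 0.0915).

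HOXA10 moved the other way. It read 8.11, 8.86 and 8.22 at day 0, 7.0, 7.66 and 5.74 in day 28 MSCs and 6.31, 6.98 and 6.52 in chondrocytes. Each day 28 array was below each day 0 array, and the day 28 groups overlapped. In MSCs it fell by 1.59 on the log2 scale (SE 0.44, adjusted p = 0.0219). The call ended without the day 0 array of calf 2 (-1.36, adjusted p = 0.0782) and in the fit of those groups alone (adjusted p = 0.0502), over a range of 0.00497 to 0.0782. Chondrocytes were lower than day 0 MSCs by -1.79 ± 0.44 (adjusted p = 0.0128; 0.0502 without the chondrocyte array of calf 1, 0.00146 to 0.0502 over the alternatives). Between the cell types at day 28 HOXA10 gave -0.20 (adjusted p = 0.855).

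HOXD10, a limb gene of the HOXD cluster, was even in chondrocytes and uneven in MSCs. It read 6.22, 7.49 and 5.0 at day 0, 5.06, 6.87 and 4.69 in day 28 MSCs and 8.11, 7.72 and 8.12 in chondrocytes. MSCs of calf 2 were the highest of their group at both times, and no chondrocyte array fell into the range of either MSC group. Chondrocytes were 5.45-fold above day 28 MSCs (2.45 ± 0.67, adjusted p = 0.0486). This call is close to the threshold: it ended without the day 0 array of calf 1, without the day 28 MSC array of calf 1 or calf 3, and without any of the 3 chondrocyte arrays, with adjusted p from 0.0184 to 0.212 over the alternatives. Against day 0 MSCs the difference was 1.75 ± 0.67 (adjusted p = 0.0768; with the calf as a block 0.0311, and 0.0258 to 0.230 over the alternatives).

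The other 6 HOX genes, HOXB3, HOXB4, HOXB7, HOXC5, HOXC6 and HOXC13, were called in no comparison and read between 1.51 and 4.44. HOXB4, a gene that expands blood stem cells, read 3.70, 2.33 and 4.44 at day 0, 2.33, 1.89 and 4.31 in day 28 MSCs and 1.88, 1.51 and 1.71 in chondrocytes. The chondrocyte arrays were the 3 lowest, and in MSCs calf 3 was the highest and calf 2 the lowest at both times. Chondrocytes against day 0 MSCs gave -1.79 ± 0.65 (adjusted p = 0.0652; 0.0140 with the calf as a block, and up to 0.197 over the alternatives). HOXC13, a hair and nail gene, read 3.99, 2.57 and 2.43 at day 0 and 1.60, 1.80 and 1.96 in chondrocytes, a difference of -1.21 ± 0.42 (adjusted p = 0.0565; 0.0265 with the calf as a block, range 0.0262 to 0.150). HOXB3 gave -0.51 ± 0.20 in the same comparison (adjusted p = 0.0824). HOXB7 and HOXC6 stayed within 1.91 to 2.64 and 1.81 to 2.30.

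**Figure D2:**
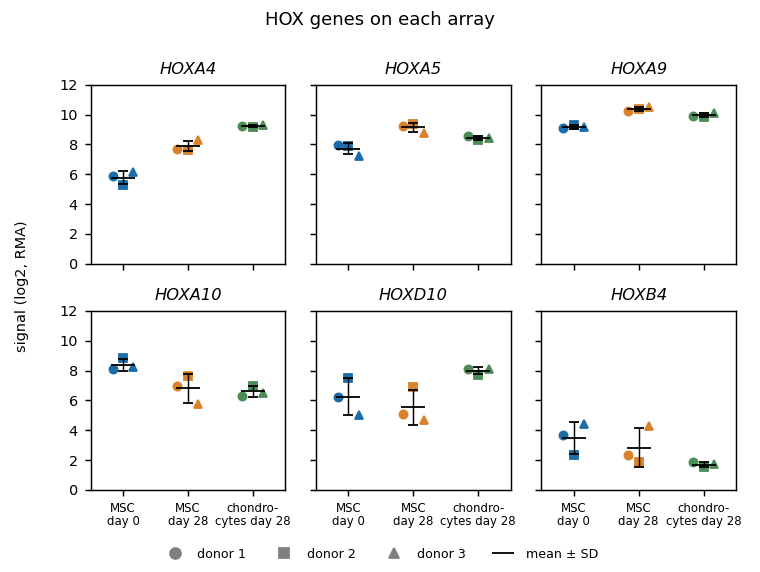
Log2 intensity (vertical axis) of 6 HOX genes on each of the 9 arrays, by group, with 1 symbol shape per calf and the mean ± SD of 3 arrays. HOXA4 was lowest in day 0 MSCs and highest in chondrocytes, HOXA5 and HOXA9 were highest in day 28 MSCs, HOXA10 was highest at day 0, and HOXD10 was 7.72 to 8.12 in chondrocytes but 4.69 to 7.49 in MSCs.

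Among the DNA-binding partners of HOX proteins, MEIS1 and MEIS2 moved in opposite directions between the cell types. MEIS2, a factor of the proximal limb and of neural crest, read 7.41, 6.79 and 6.91 in day 0 MSCs, 6.44, 5.57 and 5.85 in day 28 MSCs and 2.63, 3.08 and 2.52 in chondrocytes. No groups overlapped, and the gap between chondrocytes and either MSC group was wider than the spread within any group. Chondrocytes differed from day 28 MSCs by -3.21 ± 0.26 (adjusted p = 0.000134) and from day 0 MSCs by -4.29 ± 0.26 (adjusted p = 7.40e-06). The fall within MSCs was -1.08 ± 0.26 (adjusted p = 0.0123). A second MEIS2 probe set read 1.83 to 2.75 on all arrays and was not called, and with the mean of both sets the fall within MSCs was -0.51 (adjusted p = 0.0970; from 0.00519 over the alternatives) and that between cell types at day 28 was -1.78.

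MEIS1, which marks the proximal limb and blood stem cells, read 2.35, 2.32 and 2.38 at day 0, 2.03, 2.17 and 2.86 in day 28 MSCs and 3.82, 4.65 and 4.47 in chondrocytes. The chondrocyte arrays were the 3 highest, and the MSC groups overlapped. Chondrocytes were 1.96 ± 0.26 above day 28 MSCs (adjusted p = 0.00188) and 1.97 ± 0.26 above day 0 MSCs (adjusted p = 0.000555). Within MSCs the difference was 0.00 ± 0.26 (adjusted p = 0.993).

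MEIS3, the third member of that family, was higher in both day 28 groups than in day 0 MSCs. It read 5.24, 5.55 and 5.06 at day 0, 6.39, 6.39 and 6.76 in day 28 MSCs and 7.08, 6.47 and 7.03 in chondrocytes. Every day 28 array of either cell type was above every day 0 array. The difference from day 0 MSCs was 1.23 ± 0.21 in day 28 MSCs (adjusted p = 0.00211) and 1.57 ± 0.21 in chondrocytes (adjusted p = 0.000575), and the other 2 MEIS3 probe sets were called higher in both, by 0.83 and 0.47 in day 28 MSCs. At day 28 chondrocytes and MSCs gave 0.34 ± 0.21 (adjusted p = 0.378).

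The PBX factors themselves were not called. PBX2 read between 7.57 and 8.66 over the 9 arrays, with differences from -0.41 to 0.38, and PBX3 between 5.41 and 6.44. For PBX3 chondrocytes against day 0 MSCs gave 0.47 ± 0.21 (adjusted p = 0.125), which passed with the calf as a block (adjusted p = 0.0233, range 0.0233 to 0.359). PBXIP1, whose protein binds PBX factors and keeps them off DNA, read 9.62, 9.88 and 9.97 at day 0 and 9.39, 9.47 and 9.19 in day 28 MSCs. It fell by 0.47 on the log2 scale (SE 0.16, adjusted p = 0.0485). The call ended without any of 7 arrays, all but the day 0 and chondrocyte arrays of calf 1, and adjusted p ran from 0.0278 to 0.193 over the alternatives. Chondrocytes differed from day 0 MSCs by -0.46 ± 0.16 (adjusted p = 0.0531).

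MSX1, a target of BMP signals that holds mesenchyme in an undifferentiated state, was lower in both day 28 groups than in day 0 MSCs. It read 9.72, 10.15 and 9.28 at day 0, 8.80, 9.04 and 7.76 in day 28 MSCs and 7.61, 8.28 and 7.73 in chondrocytes. All day 0 arrays were above all day 28 arrays, and the day 28 groups overlapped. Chondrocytes lay below day 0 MSCs by -1.85 ± 0.35 (adjusted p = 0.00399), and a second probe set gave -1.76 (adjusted p = 0.00122). The fall within MSCs, -1.18 ± 0.35 (adjusted p = 0.0319), was less firm. It ended without the day 0 array of calf 1 (adjusted p = 0.0813) or calf 2 (-0.97, adjusted p = 0.108) or the day 28 MSC array of calf 3 (-0.80, adjusted p = 0.0756), the lowest value of its group and 1 of the 2 arrays with low hybridisation controls. The range over the alternatives was 0.00382 to 0.108.

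Of the other homeobox genes, SIX5, which lies beside the myotonic dystrophy gene DMPK, read 4.93, 5.0 and 5.73 at day 0, 5.85, 5.41 and 5.91 in day 28 MSCs and 6.27, 6.28 and 6.16 in chondrocytes. Chondrocyte arrays were the 3 highest and lay close together, and the MSC groups overlapped. Chondrocytes exceeded day 0 MSCs by 1.02 ± 0.23 (adjusted p = 0.00871). DLX3, a factor of teeth, hair and placenta, read 1.40 to 2.43, with -0.51 ± 0.19 in cultured MSCs (adjusted p = 0.0713) and -0.46 ± 0.19 in chondrocytes against day 0 (adjusted p = 0.0994). DLX4 was not called. PITX1, a hindlimb gene, SIX3, SIX6 and LHX3 read between 1.61 and 3.93, with differences from -0.23 to 0.10 and no call.

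**Figure D3:**
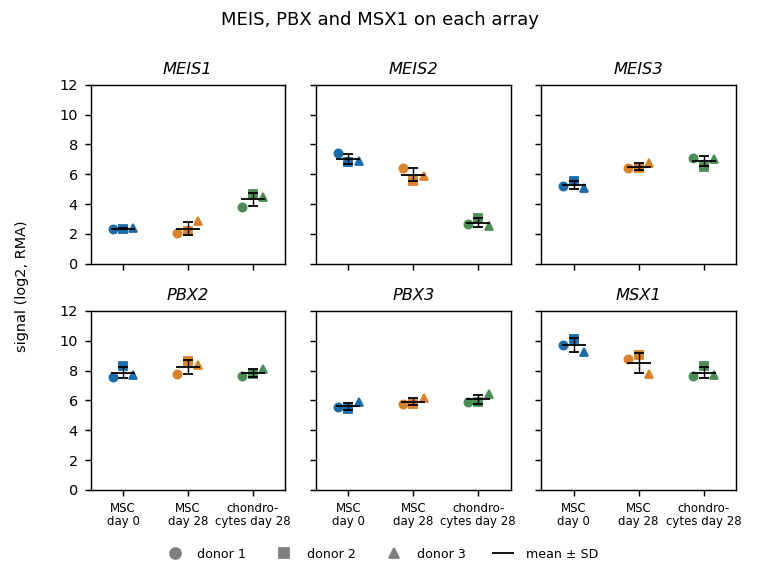
Log2 intensity (vertical axis) of MEIS1, MEIS2, MEIS3, PBX2, PBX3 and MSX1 on the 9 arrays, by group, with 1 symbol shape per calf and the mean ± SD of 3 arrays. MEIS2 was 2.52 to 3.08 in chondrocytes and 5.57 to 7.41 in MSCs, MEIS1 was 3.82 to 4.65 in chondrocytes and 2.03 to 2.86 in MSCs, and MSX1 was highest on the day 0 arrays.

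Of the SOX genes, the chondrogenic SOX5, SOX6 and SOX9 and the related SOX8 and SOX11 were not analysed here, since no probe set carried their symbols. SOX15, a factor known from muscle precursors and placenta, read 2.75, 2.60 and 3.13 at day 0, 4.52, 4.84 and 4.93 in day 28 MSCs and 4.37, 4.26 and 4.18 in chondrocytes. Day 28 MSC arrays were highest, day 0 arrays lowest, and no groups overlapped. The rise in MSCs was 1.94 ± 0.18 (adjusted p = 7.70e-05), chondrocytes exceeded day 0 MSCs by 1.44 ± 0.18 (adjusted p = 0.000344), and the difference between cell types at day 28 was -0.50 ± 0.18 (adjusted p = 0.115).

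SOX4, a factor of progenitor cells in many tissues, read 3.62, 4.13 and 3.99 at day 0, 3.02, 3.46 and 3.46 in day 28 MSCs and 2.99, 3.46 and 3.46 in chondrocytes. The day 28 groups were alike to within 0.03 for calf 1 and equal at this precision for calves 2 and 3, and all lay below the day 0 arrays. Signal of SOX4 was low (percentile 36.3). Without detection calls the repeated 3.46 cannot be told from a background level, so this likeness is not read as a result. Both differences from day 0 were -0.61 ± 0.20, with an adjusted p of 0.0481 for chondrocytes and 0.0516 for MSCs. The MSC fall passed with the calf as a block (adjusted p = 0.00715; up to 0.162 over the alternatives). The chondrocyte call ended without any of 7 arrays, all but the day 0 and day 28 MSC arrays of calf 1 (adjusted p 0.00672 to 0.278). SOX2, SOX10 and SOX18, of pluripotent, neural crest and endothelial cells, read 1.69 to 3.85 and were not called.

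TBX19, a T-box factor known for switching on the hormone precursor POMC in the pituitary, was higher in both day 28 groups than in day 0 MSCs. It read 2.10, 2.07 and 1.89 at day 0, 4.11, 5.28 and 4.75 in day 28 MSCs and 4.71, 4.67 and 4.58 in chondrocytes. All day 28 arrays lay above all day 0 arrays, which were near the low end of the scale, and the day 28 groups overlapped. The difference from day 0 MSCs was 2.69 ± 0.25 in day 28 MSCs (adjusted p = 9.19e-05) and 2.63 ± 0.25 in chondrocytes (adjusted p = 9.57e-05), with -0.06 ± 0.25 between the cell types at day 28 (adjusted p = 0.932). TBX2, a limb and heart repressor, stayed at 1.70 to 1.96.

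Among the forkhead genes FOXA3 had the largest change. FOXA3, a liver factor that has also been linked to hypertrophic chondrocytes, read 3.25, 3.15 and 3.82 at day 0, 6.33, 6.01 and 5.57 in day 28 MSCs and 7.12, 6.93 and 6.60 in chondrocytes. The groups did not overlap, and in all 3 calves chondrocytes were above day 28 MSCs. The rise in MSCs was 5.89-fold (2.56 ± 0.25, adjusted p = 0.000105), and chondrocytes were 11.1-fold above day 0 MSCs (3.48 ± 0.25, adjusted p = 1.82e-05). The step between the cell types, 0.92 ± 0.25 (adjusted p = 0.0480), ended with the calf as a block (adjusted p = 0.0558) and without any of 7 arrays, all but the day 0 array of calf 3 and the day 28 MSC array of calf 1, over a range of 0.0204 to 0.150.

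FOXO4, a forkhead factor that insulin and AKT signals keep out of the nucleus, was higher in cultured MSCs than in either other group. It read 6.10, 5.59 and 5.79 at day 0, 6.56, 7.13 and 6.85 in day 28 MSCs and 6.05, 5.65 and 5.98 in chondrocytes. The day 28 MSC arrays were the 3 highest, while chondrocytes and day 0 MSCs overlapped. In cultured MSCs it rose by 1.02 ± 0.20 (adjusted p = 0.00416) and chondrocytes were lower than day 28 MSCs by -0.95 ± 0.20 (adjusted p = 0.0164). The latter call ended without the day 28 arrays of calf 2 for MSCs (-0.81, adjusted p = 0.0541) or chondrocytes (-0.83, adjusted p = 0.0686), and without both arrays of low hybridisation controls (adjusted p = 0.0684), over a range of 0.0116 to 0.0686. Chondrocytes against day 0 MSCs gave 0.07 ± 0.20 (adjusted p = 0.830).

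FOXP1, FOXP2 and FOXP4 are known together as regulators of endochondral bone growth. The 2 FOXP1 probe sets gave opposite calls. That of higher mean read 10.42, 10.32 and 10.36 at day 0, 9.56, 9.28 and 9.58 in day 28 MSCs and 9.99, 10.22 and 10.25 in chondrocytes, so that day 28 MSCs were lowest and no groups overlapped. It fell in MSCs by 0.90 on the log2 scale (SE 0.14, adjusted p = 0.00122) and was 0.68 ± 0.14 higher in chondrocytes than in day 28 MSCs (adjusted p = 0.0145). This last call ended without the chondrocyte array of calf 2 (adjusted p = 0.0611; 0.00704 to 0.967 over the alternatives). The second set read 3.51, 3.83 and 4.82 at day 0, 6.40, 6.07 and 6.43 in day 28 MSCs and 6.66, 6.13 and 6.23 in chondrocytes. It rose in MSCs by 2.25 ± 0.31 (adjusted p = 0.000682), lay 2.28 ± 0.31 above day 0 in chondrocytes (adjusted p = 0.000624), and gave 0.04 between the cell types at day 28. No single direction can be given for FOXP1, and which transcripts each set reads was not analysed here.

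FOXP4 read 9.56, 9.33 and 10.13 at day 0, 10.33, 10.02 and 10.90 in day 28 MSCs and 10.82, 11.16 and 11.15 in chondrocytes. Chondrocytes were above all day 0 arrays and overlapped with day 28 MSCs through calf 3. They exceeded day 0 MSCs by 1.37 ± 0.27 (adjusted p = 0.00421). The difference in MSCs was 0.75 ± 0.27 (adjusted p = 0.0627), which passed with the calf as a block (adjusted p = 0.0197; 0.00263 to 0.212 over the alternatives), and the second FOXP4 probe set gave 1.19 ± 0.21 (adjusted p = 0.00263). FOXP2 gave -0.86 ± 0.32 in chondrocytes against day 0 MSCs (adjusted p = 0.0716).

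FOXS1, known from blood vessel mural cells and sensory neurons, read 3.34, 3.19 and 3.58 at day 0 and 4.20, 3.53 and 4.30 in day 28 MSCs, with the array of calf 2 inside the day 0 range. Its rise of 0.64 ± 0.21 (adjusted p = 0.0492) ended without any of 8 arrays, all but the day 28 MSC array of calf 2, over a range of 0.00637 to 0.172. FOXN3, a cell cycle checkpoint repressor, was strong on every array (9.30 to 10.17) and not called, with -0.40 ± 0.18 in chondrocytes against day 0 (adjusted p = 0.134). FOXJ2, the ovary factor FOXL2 and FOXP3, the factor of regulatory T cells, read between 1.87 and 3.04 and were not called.

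Of 5 KLF genes KLF11, KLF13 and KLF15 rose in cultured MSCs, where 13.5% of all genes were called higher; with so few genes nothing particular to the family is read from this. KLF11, a repressor induced early by TGF-beta, read 5.88, 5.69 and 6.27 at day 0, 7.27, 8.06 and 7.78 in day 28 MSCs and 7.28, 6.71 and 7.58 in chondrocytes. All day 28 arrays were above all day 0 arrays, and the day 28 groups overlapped. The rise in MSCs was 3.37-fold (1.75 ± 0.28, adjusted p = 0.00140), and chondrocytes exceeded day 0 MSCs by 1.24 ± 0.28 (adjusted p = 0.00838). The other 2 KLF11 probe sets were called higher in both comparisons, by 2.08 and 1.52 in MSCs.

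KLF13, a factor that acts in lymphocytes and heart, read 7.22, 7.72 and 7.82 at day 0, 8.88, 9.30 and 8.70 in day 28 MSCs and 9.29, 9.20 and 8.82 in chondrocytes. It showed the same layout as KLF11, with the day 28 groups overlapping above day 0. The difference from day 0 MSCs was 1.37 ± 0.22 in day 28 MSCs (adjusted p = 0.00159) and 1.52 ± 0.22 in chondrocytes (adjusted p = 0.000940). KLF15, a target of glucocorticoids that controls amino acid and lipid use, read 5.71, 4.57 and 4.94 at day 0, 7.09, 6.39 and 6.25 in day 28 MSCs and 5.82, 5.34 and 6.03 in chondrocytes. Day 28 MSCs were the 3 highest, and chondrocytes overlapped with day 0. KLF15 rose in MSCs by 1.50 ± 0.33 (adjusted p = 0.00761). Chondrocytes against day 28 MSCs gave -0.85 ± 0.33 (adjusted p = 0.148), which passed with the calf as a block (adjusted p = 0.0478; up to 0.391 over the alternatives).

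KLF10, another early TGF-beta target, was strong on all arrays (9.17 to 10.37) and missed the threshold, with 0.53 ± 0.20 in MSCs (adjusted p = 0.0805) and 0.53 ± 0.20 in chondrocytes against day 0 (adjusted p = 0.0789). KLF5, a growth-promoting factor of epithelium and smooth muscle, read 8.25, 8.75 and 9.36 at day 0 and 8.40, 8.08 and 7.30 in day 28 MSCs. These ranges overlapped through calf 1, and the difference was -0.86 ± 0.33 (adjusted p = 0.0774). A second KLF5 probe set, whose groups did not overlap, gave -1.01 ± 0.34 (adjusted p = 0.0503). With the mean of both sets the difference was -0.93 (adjusted p = 0.0413, with 0.0382 to 0.26 over the alternatives). Between the cell types at day 28, limma called 0 of 5 KLF genes, with 1 at an unadjusted p under 0.05, against 13.2% of all genes called.

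**Figure D4:**
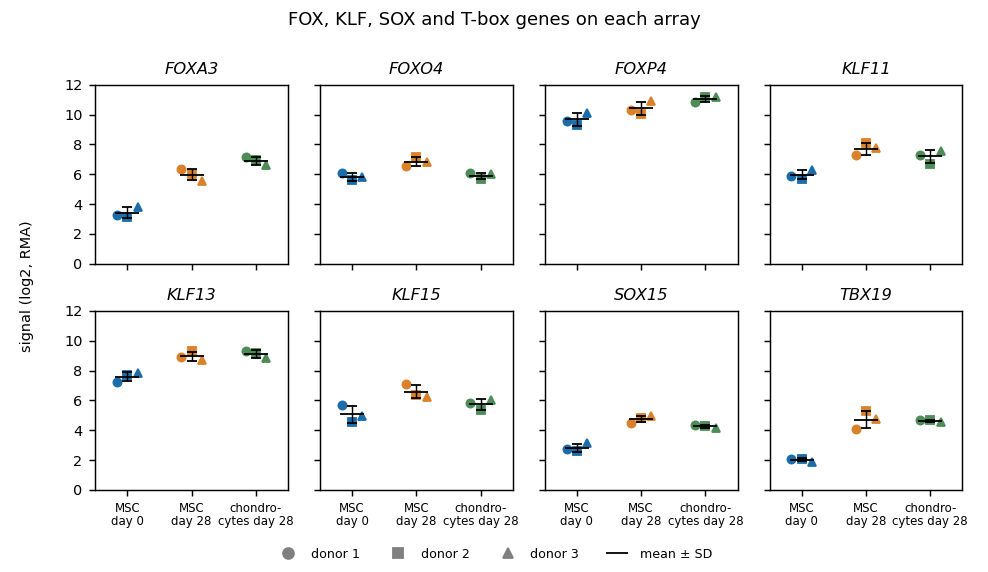
Log2 intensity (vertical axis) of FOXA3, FOXO4, FOXP4, KLF11, KLF13, KLF15, SOX15 and TBX19 on the 9 arrays, by group, with 1 symbol shape per calf and the mean ± SD of 3 arrays. FOXA3 was 3.15 to 3.82 at day 0, 5.57 to 6.33 in day 28 MSCs and 6.60 to 7.12 in chondrocytes, FOXO4 and KLF15 were highest in day 28 MSCs, and TBX19 was 1.89 to 2.10 at day 0 and 4.11 to 5.28 on the day 28 arrays.

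Of the 48 genes, 14 had more than 1 probe set. All sets of a gene had the same sign for 12 of the 14 in cultured against day 0 MSCs, 10 between the cell types at day 28 and 12 in chondrocytes against day 0 MSCs. Signs were taken from rounded differences, and the 10 leave out PITX1, whose sets gave 0.0 and 0.01. They had the same call for 9, 12 and 11. Only FOXP1, in the first of these comparisons, had sets called in opposite directions. For MEIS2 and HOXA5 the second set was near the low end of the scale on all arrays.

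**Figure D5:**
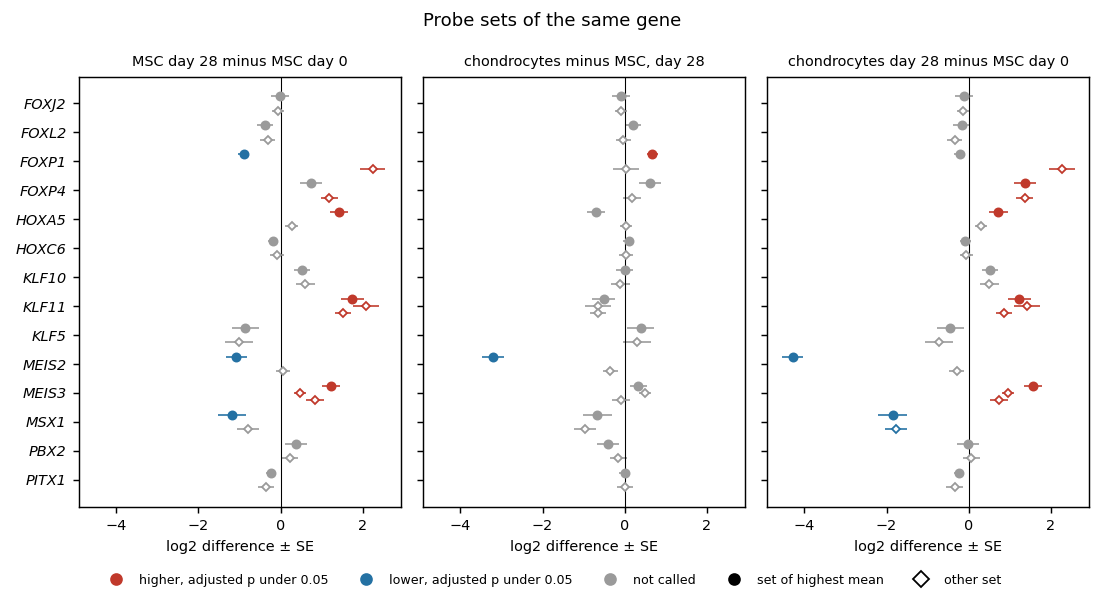
Log2 difference (horizontal axis) of each probe set of the 14 genes with several sets, in the 3 comparisons (panels), with filled circles for the set of highest mean and other marks for the rest. The sets of MEIS3 and KLF11 lie on the same side in cultured against day 0 MSCs, while those of FOXP1 lie at -0.90 and 2.25.

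Differences between calves were tested with group and calf in 1 limma model. The calf term was called for 0 of the 48, with 8 at an unadjusted p under 0.05, against 0.0874% of all genes called. For HOXB4 calf 2 lay below calf 1 by -0.72 and calf 3 above it by 0.85 (adjusted p = 0.325). For HOXD10 calf 2 lay 0.90 above calf 1 (adjusted p = 0.428), and for HOXA10 0.69 above it (adjusted p = 0.353). These differences did not pass the threshold.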

How the data were processed

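RNA of 9 samples was hybridised to single-colour bovine expression arrays, 1 per sample. RNA was taken up in trizol, copied from its poly(A) tails, amplified and labelled with biotin, per the labels' protocols, which favours the 3′ ends of transcripts. The deposited values are log2 intensities; RMA is the method that the submitters' processing notes name (its version not given in the sources used here). RMA brings arrays to 1 intensity distribution, so that a shift of all transcripts cannot be seen. Of 24128 probe sets, 112 controls were left out. Symbols came from the platform annotation: 13292 probe sets had 1 symbol, 86 several and 10638 none. All 48 symbols equalled those in RefSeq's gene table (assembly ARS-UCD2.0).

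One limma model (lmFit and eBayes, limma 3.58.1 under R 4.3.3) held all 3 groups. Benjamini-Hochberg adjustment ran over the 24016 probe sets of each comparison, and the fit was tested on simulated data. The labels number the calves, so that arrays of 1 number came from 1 calf. After the group means were taken off, arrays of 1 calf in different groups correlated at 0.108 to 0.412, and arrays of different calves at -0.303 to 0.152. These ranges overlap. The value of 0.412 came from the day 28 MSC and chondrocyte arrays of calf 3, the arrays with low hybridisation controls. For that pair, calf and low controls cannot be told apart. The calf as a block was an alternative, and the test of the calf term was added after seeing the data. Named genes were those called, those near the threshold (adjusted p to 0.10) and a fixed set of known regulators, and of gene lists up to 4 genes of smallest p. Some cell type markers, such as MATN1, were named outside this rule. The genes, lists, alternatives and tests were chosen with earlier results of these data known. No sequences were used here.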

Additional observations from a re-analysis of the deposited data

How the results depend on the processing

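Of 40 calls of single genes over the 3 comparisons, 27 kept direction and side of the threshold under the 20 to 22 settings of scaling, filter, variance, probe set, calf and arrays run for each gene, of which 26 were also at least 2-fold, and 12 were lost in at least 1. FOXP1 turned: in MSCs it was 0.67 with the mean of its probe sets and 2.25 with the set of largest SD, and in chondrocytes against day 0 MSCs 1.03 and 2.28. Genes lower in cultured MSCs (5) became 3 without both arrays of low hybridisation controls, 2 in the fit of 2 groups alone and 3 with a 2-fold minimum, and 2 to 6 leaving out 1 array. Genes higher in chondrocytes at day 28 (5) became 2 without both low-control arrays and 3 with the 2-fold minimum, and 2 to 5 leaving out 1 array. Genes lower there (2) became 4 with the calf as a replicate block, 1 without both low-control arrays and 1 with the 2-fold minimum, and 1 to 3 leaving out 1 array. Genes lower in chondrocytes than in day 0 MSCs (4) became 12 with arrays centred on their median and 8 with array weights, and 2 to 5 leaving out 1 array. The counts of higher genes, 12 in each comparison with day 0, ran from 10 to 14 and from 9 to 15, and from 11 to 13 leaving out 1 array. A fold minimum can only remove calls. Leaving out arrays removed calls in some cases and added them in others, and the cause of these and the other changes was not tested. The calf block changed no call among the 48 genes other than those given with it, and the alternatives were not run for the genes of the other lists. Centring on 17 ribosomal protein genes moved the median difference over all probe sets by 0.144, 0.129 and 0.272, and median centring by -0.054, -0.065 and -0.119. Low signal limits what can be seen for the 11 genes under the 25th percentile.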

Other observations

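Genes around these factors, from lists of known partners, regulators and targets, were read in the same fits, in which 34.5% of all genes were called in cultured against day 0 MSCs, 13.2% between the cell types at day 28 and 36.0% in chondrocytes against day 0 MSCs. Of HOX partners and relatives of MEIS, 3 of 11 listed were measured. TGIF1, a TALE repressor of TGF-beta signals, read 8.63, 8.91 and 8.63 at day 0, 9.66, 9.60 and 9.57 in day 28 MSCs and 9.44, 9.43 and 9.46 in chondrocytes, and was called higher in both day 28 groups (0.88 ± 0.13, adjusted p = 0.000824, and 0.72 ± 0.13, adjusted p = 0.00258). Of other homeobox genes of limb and mesenchyme, 5 of 25 were measured. IRX3, a limb patterning gene, read 8.01, 8.35 and 8.71 at day 0, 7.94, 7.80 and 7.89 in day 28 MSCs and 6.23, 6.49 and 7.40 in chondrocytes, lower there than in day 28 MSCs (-1.17 ± 0.29, adjusted p = 0.0345) and than at day 0 (-1.65 ± 0.29, adjusted p = 0.00258).

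Of 14 measured Polycomb and trithorax genes, which set the chromatin state of HOX clusters, 2 were higher and 2 lower in cultured MSCs, 1 was higher in chondrocytes at day 28, and 2 were higher and 1 lower in chondrocytes than in day 0 MSCs. These shares, 28.6%, 7.14% and 21.4%, were all below those of all genes. EZH2, an enzyme of the repressive H3 mark, read 8.0, 8.27 and 8.14 at day 0, 7.39, 7.65 and 8.0 in day 28 MSCs and 9.45, 9.70 and 9.48 in chondrocytes. It was 1.86 ± 0.18 higher in chondrocytes than in day 28 MSCs (adjusted p = 0.000279). KDM6A, which removes that mark, rose in MSCs by 1.21 ± 0.21 (adjusted p = 0.00219). EZH1, another enzyme of the mark, rose as well, by 0.82 ± 0.19 (adjusted p = 0.00924). EED, a subunit beside EZH2, fell by 0.81 on the log2 scale (SE 0.16, adjusted p = 0.00505), and RBBP7 gave -0.62 ± 0.14 (adjusted p = 0.00771).

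Lists of known targets differed in how many of their genes were called. FOXM1, FOXO1, FOXO3, KLF2, KLF6 and SOX9 were not among the 48 genes, so their own levels were not read here. The activity of these factors was not tested. Of 10 measured SOX9 targets of cartilage 9 were higher in cultured MSCs and 9 in chondrocytes than at day 0. At day 28 CNMD alone was called higher in chondrocytes (3.93 ± 0.35, adjusted p = 0.000214). Most of these targets also stand in the list of chondrocyte markers, so their counts are not separate from the marker counts. Of 13 targets of FOXM1, genes of mitosis, 12 were lower in cultured MSCs, among them AURKB (-3.49 ± 0.27, adjusted p = 3.49e-05), all 13 were higher in chondrocytes than in day 28 MSCs, and 9 were higher in chondrocytes than at day 0. Of 14 FOXO targets 3 were higher and 1 lower in cultured MSCs, 0 higher and 4 lower in chondrocytes than in day 28 MSCs (8 at an unadjusted p under 0.05 in limma), and 4 higher and 4 lower than in day 0 MSCs. The FOXO shares were 28.6%, 28.6% and 57.1%, the first below that of all genes. SESN1, a stress-response target, rose in MSCs by 2.07 ± 0.29 (adjusted p = 0.000712), and PIK3IP1, an inhibitor of PI3 kinase, was lower in chondrocytes at day 28 by -1.65 ± 0.16 (adjusted p = 0.000365). Of 15 KLF relatives and immediate early factors 1 was higher and 8 lower in cultured MSCs. FOSB, an early response gene, read 8.91 to 9.45 at day 0, 2.62 to 3.10 in day 28 MSCs and 4.33 to 4.40 in chondrocytes (-6.36 ± 0.18 in MSCs, adjusted p = 1.09e-07). Of 10 KLF2 and KLF6 targets 2 were higher and 3 lower there.

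Markers of other cell types were called in shares of 20.0% to 36.4% in cultured against day 0 MSCs, near or below that of all genes. Of 11 stromal markers 1 was higher and 2 lower in cultured MSCs, of 15 blood cell markers 1 and 4, of 10 endothelial markers 2 and 0, of 11 adipocyte markers 3 and 1, of 11 skeletal muscle markers 1 and 2, and of 6 osteoblast markers 1 and 1. In chondrocytes against day 28 MSCs these were 2 and 2, 1 and 1, 1 and 0, 2 and 2, 0 and 3, and 0 and 0 (1 osteoblast marker at an unadjusted p under 0.05 in limma). The shares were 36.4%, 13.3%, 10%, 36.4%, 27.3% and 0% in the same order. Stromal, adipocyte and skeletal muscle markers thus lay above the 13.2% of all genes. In chondrocytes against day 0 MSCs the counts were 0 and 2, 2 and 4, 3 and 0, 4 and 2, 0 and 2, and 1 and 0. Their shares were 18.2%, 40%, 30%, 54.5%, 18.2% and 16.7%, with blood cell and adipocyte markers above the 36.0% of all genes. The part of such cells in the results above was not tested.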
